A study of Mus musculus with 92 samples.

Results

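The genes described here are those that build cell adhesion and cell polarity at compaction of the mouse embryo. They were chosen by name, as the rows of the deposited count table that map to Cdh1, Ctnna1, Ctnnb1, Ctnnd1, Jup, Ezr, Prkci, Pard6b, Pard3 and Myh9. Of these 10 genes, 9 have a row among the 7886 genes of the table. Ezr has none and was not analysed here.

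Compaction is the step at which the loosely attached blastomeres of the 8-cell embryo flatten against each other. It needs E-cadherin (Cdh1), a transmembrane protein that binds its counterpart on the next cell, and the catenins, which hold the cytoplasmic tail of E-cadherin and link it to actin. At about the same time each blastomere forms an apical domain that carries the kinase aPKC and its partners Par6 and Par3, while the actomyosin cortex supplies the contractile force. Much of the protein that serves compaction is already present before this stage, so the RNA level of a member need not follow its protein.

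The cells were single blastomeres of 8-cell embryos from wild-type C57BL/6N mice, profiled with Smart-seq2, which reads full-length transcripts of 1 cell and attaches no molecular identifiers. The injection, made at the zygote stage, held the let-7d microRNA (group Let7d), let-7e (group Let7e), a microRNA that the labels call mi699a-5p, or a negative control (group NC), and the embryos were kept until the 8-cell stage and taken apart. All groups were injected, and no uninjected embryo is among the labelled samples. The sample titles of all groups carry IVF, the usual abbreviation of in vitro fertilisation. The labels give no amount injected and no sequence of the negative control, and they call the unit that groups the cells a mouse id without saying whether it is an embryo, a mother or a donor.

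The injected let-7 microRNAs are shown because their seed, bases 2 to 8 counted from the 5′ end and printed in capitals, is the part that pairs with a target. The sequences are from RefSeq on GRCm38.p6. The mature let-7d lies at chr13:48536078-48536099 on the minus strand and the mature let-7e at chr17:17830366-17830387 on the plus strand.
mmu-let-7d-5p: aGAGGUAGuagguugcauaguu
mmu-let-7e-5p: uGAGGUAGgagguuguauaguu
Both share the seed GAGGUAG and differ at 3 of 22 positions outside it. For mi699a-5p no sequence is shown. The 7-base complement of the let-7 seed, CTACCTC, was searched on the transcript strand of the longest annotated 3′ untranslated region of each gene. It occurs in 1 of the 9 members, Pard6b, and in 803 of the 7577 genes of the table that have an annotated 3′ region (10.6%). The match of Pard6b, on chromosome 2, starts at base 1336 of the 1993 bases of that region in transcript Pard6b-201 and is printed with its flanks, the match in capitals.
Pard6b: atttcacataCTACCTCtctct
It is not followed by an A. A match of letters is a description, not a site of binding.

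After 2 near-identical columns were counted as 1 cell, 81 blastomeres remained. Let7d had 18 cells of 3 mouse ids, Let7e 20 cells of 4, mi699a-5p 21 cells of 4 and NC 22 cells of 3, with 2 to 8 cells per mouse id. Mouse ids are called replicates below. Reads per cell ranged from 1575609 to 4950404 with a median of 2736612, and genes with at least 1 read from 5562 to 7497 with a median of 6965. The mean reads per cell of a mouse id ranged from 2991646 to 4071285 in Let7d, from 2916582 to 3164732 in Let7e, from 1936975 to 2437853 in mi699a-5p and from 2225246 to 2732434 in NC. Ribosomal RNA made up 3.75% to 8.78% of the reads of a mouse id in the Let7d group, 6.03% to 14.01% in Let7e and 7.84% to 12.83% in mi699a-5p, against 9.16% to 14.86% in NC. Of 15 early embryo markers 10 have a row. Of these, 7 (Pou5f1 and Dppa3 among them) had reads in 81 of 81 cells, Zp3 in 78, Nanog in 73 and Nlrp5 in 49. Of the marker lists for cumulus and granulosa cells (11 genes), sperm (7), blood (5) and fibroblasts (5), 0 genes have a row in this table, which the authors had filtered on level.

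In 3 mouse ids there were cells that carried Xist RNA and cells that carried RNA of the Y chromosome, each called at 20 CPM (reads scaled to a common library total). In Let7e replicate 1 these were 4 and 2 cells, in mi699a-5p replicate 4 they were 3 and 1, and in NC replicate 2 they were 4 and 4. A female and a male blastomere do not come from the same embryo, so the cells of these mouse ids are not all sisters. In the other 11 mouse ids the cells were of 1 kind, apart from 1 cell of mi699a-5p replicate 2 that carried neither. Without the mixed mouse ids 0 members passed the adjusted test in any comparison, and the values of the larger differences are given both ways below. Such a run keeps only replicates 1 and 3 of NC, replicates 1 to 3 of mi699a-5p, replicates 2 to 4 of Let7e and all of Let7d.

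Per kilobase of exon, Cdh1, Ctnna1, Ctnnb1 and Jup led, and Ctnnd1, Myh9 and the polarity genes were lower. The length was that of all annotated exons of a gene joined, which can exceed that of the transcript present, so the order is approximate. It was 14506 bases for Pard3 and 12928 for Myh9. Before division by length their means were 15.4 and 18.2 CPM, near the 16.8 CPM of Ctnnd1 and the 14.9 CPM of Pard6b. Cdh1 stood at 33.3 ± 7.82 CPM per kb (SD, n = 14 mouse ids), Ctnna1 at 22.9 ± 6.66, Ctnnb1 at 14.9 ± 5.22 and Jup at 6.83 ± 2.24. Below them came Pard6b at 4.37 ± 3.46 CPM per kb, Ctnnd1 at 2.3 ± 0.611, Prkci at 2.14 ± 1.27, Myh9 at 1.4 ± 0.41 and Pard3 at 1.06 ± 0.456. Cdh1 was at the 79th percentile of the 7884 genes with a known exon length, and Pard3 at percentile 2.9. The order of the upper 4 genes held in most mouse ids. Cdh1 was above Ctnna1 in 12 of 14, Ctnna1 above Ctnnb1 in 12 and Ctnnb1 above Jup in 13, although the mean difference of Cdh1 from Ctnna1, 10.4 CPM per kb, was no larger than its SD of 10.7. Below Jup, neighbours in the order changed places in 5 or 6 of the 14 mouse ids, and their mean difference was smaller than its SD over mouse ids. Only genes that passed the authors' filter are in this ranking.

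Of the adhesion genes, Cdh1 (chr8:106603351-106670246) had nearly the same mean in all 4 groups. The levels that follow are of reads summed over the cells of a mouse id, in CPM scaled by TMM, a correction for RNA composition. Cdh1 stood at 191, 130.3 and 127 CPM in Let7d replicates 1 to 3. It had 95.1, 155, 205 and 118 CPM in the 4 Let7e mouse ids and 177, 95.5, 198 and 145 in those of mi699a-5p, against 165, 176 and 151 CPM in NC. The ranges of the 3 microRNA groups extended beyond that of NC on both sides, and the group means were 149 ± 36.1 in Let7d, 143 ± 48.0 in Let7e, 154 ± 44.7 in mi699a-5p and 164 ± 12.7 in NC (SD, n = 3, 4, 4 and 3).

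Ctnna1, which encodes alpha-E-catenin, the link from the cadherin complex to actin, had 153, 157 and 183 CPM in the Let7d mouse ids, 165, 109, 57.0 and 150.1 in Let7e and 234, 117, 163 and 164 in mi699a-5p, against 128, 176 and 99.2 CPM in NC. The highest mouse id was in mi699a-5p and the lowest was Let7e replicate 3, which holds 2 cells. Ctnnb1 (chr9:120929216-120960507), which encodes beta-catenin, the partner of the E-cadherin tail and the effector of Wnt signalling, stood at 53.4, 76.7 and 84.7 CPM in Let7d. It had 91.8, 67.8, 22.9 and 91.4 CPM in Let7e and 59.5, 55.5, 74.3 and 141 in mi699a-5p, against 75.5, 97.7 and 89.5 CPM in NC. All groups overlapped, and Let7e replicate 3 was again the lowest.

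Ctnnd1 (chr2:84600071-84650765) encodes p120-catenin, which keeps cadherin at the membrane. It had 12.1, 10.5 and 11.2 CPM in the Let7d mouse ids, 18.5, 19.2, 20.6 and 13.5 in Let7e and 21.9, 24.1, 17.5 and 15.7 in mi699a-5p, against 15.9, 12.3 and 22.4 CPM in NC. All Let7d mouse ids lay below all mouse ids of the other groups, and the nearest of those was NC replicate 2. Of all genes, 12% did not overlap between Let7d and NC, 6.07% between Let7d and Let7e and 6.77% between Let7d and mi699a-5p. The share of genes free of overlap with all 3 groups at once is not given here. Jup (chr11:100368958-100397763) encodes plakoglobin, a close relative of beta-catenin that also serves desmosomes. It stood at 20.1, 37.5 and 45.1 CPM in the Let7d mouse ids, 59.2, 52.0, 41.3 and 40.6 in Let7e and 65.4, 56.8, 65.1 and 34.7 in mi699a-5p, against 22.6, 43.3 and 31.7 CPM in NC. Of the mi699a-5p mouse ids 3 of 4, and of the Let7e mouse ids 2 of 4, were above the NC range, and the others lay within it.

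**Figure D1:**
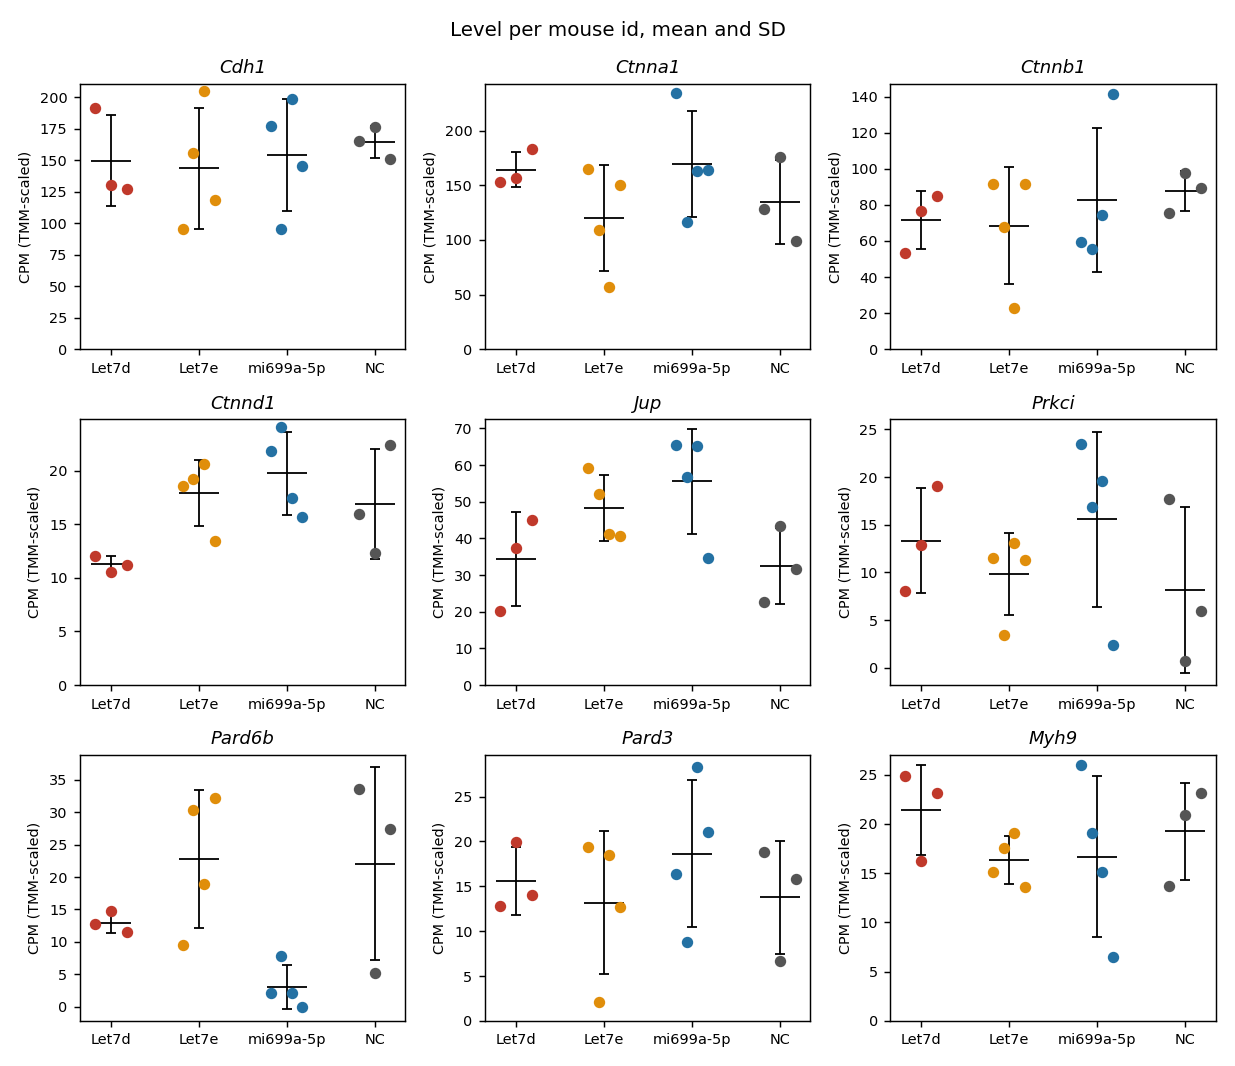
Level of each member in CPM (TMM-scaled, linear axes) in the 14 mouse ids, 1 point each, by injected microRNA, with the mean (bar) and SD (whiskers). Pard6b has its 4 mi699a-5p points between 0 and 7.82 CPM, and the 3 Let7d points of Ctnnd1 lie together below the others.

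Pard6b (chr2:168081004-168101203) encodes a Par6 protein, the adaptor that joins aPKC to Par3 and Cdc42 and that the mouse embryo needs for its apical domain and for blastocyst formation. Its group means differed by the largest factor among the 9 members. Pard6b stood at 12.7, 14.7 and 11.4 CPM in the Let7d mouse ids, 9.5, 30.4, 18.9 and 32.2 in Let7e and 2.1, 7.8, 2.2 and 0 in mi699a-5p, against 33.5, 5.2 and 27.4 CPM in NC. The 4 mi699a-5p mouse ids were below every Let7d and Let7e mouse id, and they overlapped NC through NC replicate 2. Of all genes, 6.77% did not overlap between mi699a-5p and Let7d, and 4.16% between mi699a-5p and Let7e. The 0 of mi699a-5p replicate 4 was 0 of 8763962 reads, which allows a level of up to 0.342 CPM (3 reads, counting error only).

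Cell by cell, Pard6b had reads in 11 of 18 Let7d, 16 of 20 Let7e and 8 of 21 mi699a-5p blastomeres, against 13 of 22 in NC. In the 4 cells of mi699a-5p replicate 4 there were none, and NC replicate 2 held 6 of the 9 NC cells at 0. The median cell had 5.4 CPM in the Let7d group, 22 in Let7e and 0 in mi699a-5p, against 6.07 CPM in NC. The mi699a-5p cells had the fewest reads of the 4 groups. When all cells were thinned to 1575609 reads, Pard6b had reads in 10, 15 and 8 cells of Let7d, Let7e and mi699a-5p, and in 13 cells of NC.

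Prkci (chr3:30995747-31052959) encodes an atypical protein kinase C, the kinase of the apical complex. It had 8.1, 12.9 and 19.1 CPM in the Let7d mouse ids, 11.5, 3.4, 13.1 and 11.3 in Let7e and 23.4, 16.9, 19.6 and 2.3 in mi699a-5p, against 17.8, 0.7 and 6.0 CPM in NC. NC replicate 2 was the lowest of all 14, and all groups overlapped. Pard3 (chr8:127063893-127612286), which encodes the scaffold Par3, stood at 12.8, 19.9 and 14 CPM in the Let7d mouse ids, 19.4, 2.1, 18.5 and 12.7 in Let7e and 16.4, 8.8, 28.3 and 21 in mi699a-5p, against 18.8, 6.7 and 15.8 CPM in NC. Let7e replicate 2 was the lowest, with 4 of its 8 cells at 0.

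Myh9 (chr15:77760587-77842175) encodes the heavy chain of non-muscle myosin IIA, a motor of cortical tension. It had 24.8, 16.2 and 23.2 CPM in the Let7d mouse ids, 15.2, 17.6, 19.1 and 13.6 in Let7e and 26.0, 19.1, 15.2 and 6.5 in mi699a-5p, against 13.7, 20.9 and 23.2 CPM in NC. All groups overlapped.

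Tested across all genes, no member passed the adjusted threshold in a comparison of groups. With few mouse ids per group, this does not show that levels were equal. The comparisons ask whether the injected let-7d, let-7e or mi699a-5p changed RNA levels relative to the control injection, and whether the 2 let-7 microRNAs differed from each other. In edgeR's quasi-likelihood test on reads summed per mouse id, with Benjamini-Hochberg adjustment over 7886 genes, 0 of 9 members passed an adjusted p of 0.05 in Let7d against NC, where 0.0127% of all genes did (1 gene, not a member). In Let7e against NC, mi699a-5p against NC, Let7e against Let7d and the test of any difference among the 4 labels, 0 of 9 members and 0% of all genes passed. At an unadjusted p under 0.05 there were 0 members in Let7d against NC (4.69% of all genes), 0 in Let7e against NC (4.02%), 2 in mi699a-5p against NC (5.5%), 0 in Let7e against Let7d (5.39%) and 1 in the test of any difference (5.59%). DESeq2 called 3, 0, 6 and 8 genes in the 4 comparisons, in the order just given, and 15 in the test of any difference, with 0 members among them.

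The 2 members under an unadjusted 0.05 in mi699a-5p against NC were Pard6b and Jup. Pard6b averaged 3.03 ± 3.35 CPM in mi699a-5p and 22 ± 14.9 in NC (SD, n = 4 and 3), a log2 fold change of -2.84 ± 0.95 (SE) with an edgeR p of 0.00764 and an adjusted p of 0.858. Without the mixed mouse ids, among them NC replicate 2, the log2 fold change was -2.91, with an unadjusted edgeR p of 0.000787 and an adjusted p of 0.594. That run compares mi699a-5p replicates 1 to 3 with NC replicates 1 and 3 only. It drops the lowest mouse id of each group, NC replicate 2 at 5.2 CPM and mi699a-5p replicate 4 at 0. Leaving out each mouse id in turn gave log2 fold changes of -3.94 to -2.41, the first without mi699a-5p replicate 2 and the second without NC replicate 1. Thinned to equal depth, the difference was -2.85, and on log2(CPM + 1) averaged over cells it was -1.8, with a limma p of 0.0243 and an adjusted p of 0.936. The difference of mi699a-5p from Let7d and from Let7e was not tested. In the test of any difference among the 4 labels, Pard6b had an edgeR p of 0.0315 and an adjusted p of 0.887.

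Jup averaged 55.5 ± 14.4 CPM in mi699a-5p and 32.5 ± 10.4 in NC (SD, n = 4 and 3), a log2 fold change of 0.77 ± 0.37 (SE) with an edgeR p of 0.0494 and an adjusted p of 0.871. It was 0.57 without NC replicate 1 and 1.03 without NC replicate 2. Averaging log2(CPM + 1) over cells in place of summing reads gave a difference of 1.36, with a limma p of 0.00911 and an adjusted p of 0.936. Without the mixed mouse ids it was 1.19, with an adjusted edgeR p of 0.754. In Let7e against NC the log2 fold change of Jup was 0.57 ± 0.36, with an edgeR p of 0.135.

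Ctnnd1 was the single member whose groups did not overlap in a tested comparison. It averaged 11.3 ± 0.777 CPM in Let7d and 16.9 ± 5.12 in NC (SD, n = 3 each), a log2 fold change of -0.59 ± 0.50 with an edgeR p of 0.254. Without the mixed mouse ids, among them NC replicate 2, it was -0.76, with an edgeR p of 0.196. Of all genes, 12% did not overlap between Let7d and NC. In Let7e against Let7d it averaged 17.9 ± 3.09 and 11.3 ± 0.777 CPM, a log2 fold change of 0.67 ± 0.47 with p = 0.171 in edgeR, and 6.07% of all genes did not overlap. In Let7e against NC and in mi699a-5p against NC 0 members were free of overlap, where 5.62% and 8.38% of all genes were. The Let7d cells were the most deeply read, and within mouse ids the level of Ctnnd1 had a Spearman rank correlation of -0.31 with the read total of the cell (81 cells, mouse id means removed). Thinned to equal depth, the log2 fold change in Let7d against NC was -0.5. The ribosomal RNA share of the Let7d mouse ids was also below that of all NC mouse ids. The part of these in the difference was not tested beyond this.

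**Figure D2:**
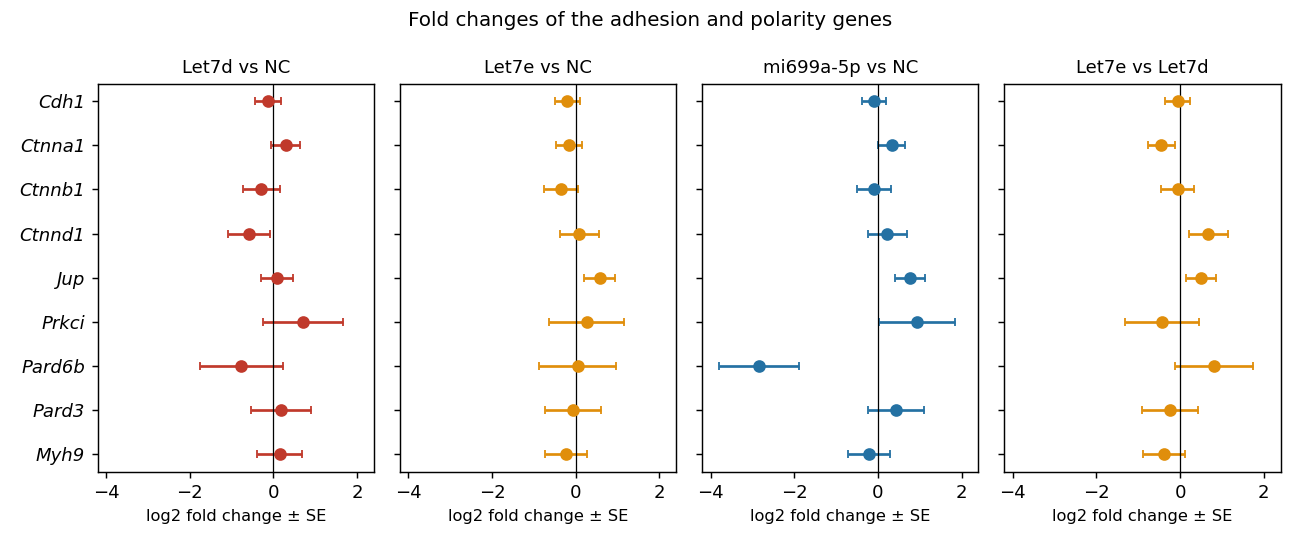
Log2 fold changes (x axis) with their SE (whiskers) of the 9 members in 4 comparisons, from edgeR on reads summed per mouse id. Pard6b in mi699a-5p against NC, at -2.84, lies farthest from 0, and no member passed the adjusted test.

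None of the remaining fold changes had an unadjusted edgeR p under 0.05. Cdh1 lay between -0.20 ± 0.29 and -0.06 ± 0.29 in the 4 comparisons, on the log2 scale, and Ctnnb1 between -0.35 ± 0.40 and -0.06 ± 0.41. Ctnna1 was at 0.29 ± 0.34 in the Let7d group, -0.16 ± 0.32 in Let7e and 0.33 ± 0.32 in mi699a-5p, each against NC, and at -0.45 ± 0.32 in Let7e against Let7d. These values were, without the mixed mouse ids, 0.54, -0.1, 0.57 and -0.64. Jup was at 0.50 ± 0.36 in Let7e against Let7d. Prkci had log2 fold changes of 0.71 ± 0.95, 0.26 ± 0.89 and 0.93 ± 0.91 in Let7d, Let7e and mi699a-5p against NC, with SEs near 1 on the log2 scale. They were 0.18, -0.36 and 0.73 without the mixed mouse ids. They moved most with the NC mouse ids. Without NC replicate 1 they were 2.0, 1.55 and 2.22 and without NC replicate 2 they were 0.17, -0.28 and 0.39. Pard6b in Let7d against NC was at -0.77 ± 0.98, and at -1.22 without the mixed mouse ids. In Let7e against NC it was at 0.05 ± 0.91. Over the 9 members the median log2 fold change was 0.07 in the Let7d group, -0.07 in Let7e and 0.23 in mi699a-5p, against NC, and -0.06 in Let7e against Let7d. Over all genes these medians were 0.01, 0.02, 0.04 and 0.01. The first 3 comparisons share their NC cells.

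Blastomeres of 1 mouse id differed from each other far more than read counting alone gives. The spread was taken as the coefficient of variation (CV) of CPM over the cells of a mouse id. Its median over mouse ids was 51.9% for Cdh1, 44.4% for Ctnna1, 55.5% for Ctnnb1 and 52.7% for Ctnnd1. It was 87.3% for Jup, 74.3% for Myh9, 104% for Pard3, 118% for Pard6b and 147% for Prkci. Counting error alone would give median CVs between 4.96% (Ctnna1) and 16.6% (Prkci). For Cdh1 the CV exceeded its counting CV in 13 of 14 mouse ids, the exception being Let7e replicate 3 with 2 cells at 193 and 203 CPM. Since Smart-seq2 reads carry no molecular identifiers, the spread includes that of cDNA capture and amplification, whose share was not measured.

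Low genes scatter more in any single-cell data, so each member was set beside genes of its own level. The measure was the SD of log2(CPM + 1) between cells of a mouse id, pooled over the 14 mouse ids, and genes were ranked by their mean CPM and split into 10 level bins of equal size. Cdh1 had an SD of 1.34, against a median of 0.75 for the 789 genes of its bin, at percentile 95.9. Ctnna1, of the same bin, had 1 (percentile 79.7), and Jup 2.04 against a median of 1.5 (percentile 89.0). At the other end, Ctnnd1 had an SD of 1.06, against a median of 2.03 in its bin, at percentile 2.8, and Myh9, of the same bin, had 1.47 (percentile 9.4). Ctnnb1 at percentile 49.7, Pard3 at 31.6, Prkci at 66.9 and Pard6b at 72.5 lay within the middle of their bins. These percentiles are descriptions and carry no test.

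**Figure D3:**
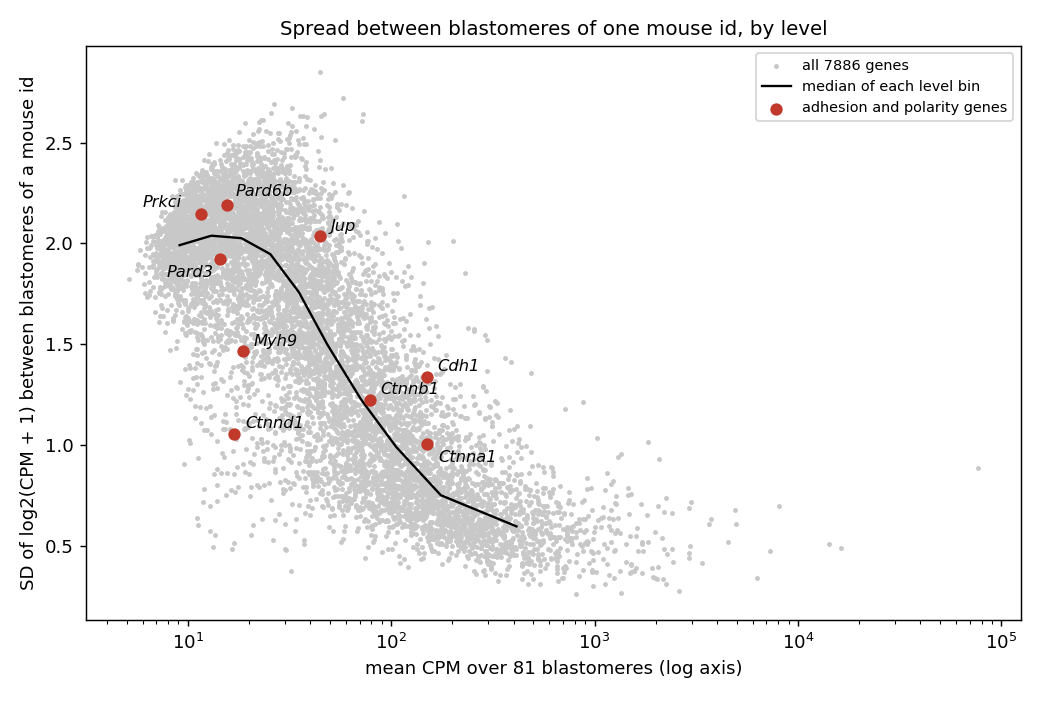
SD of log2(CPM + 1) between blastomeres of a mouse id (y axis) against the mean CPM over 81 cells (x axis, log scale), for all 7886 genes (grey), the median of each level bin (line) and the 9 members (red). Cdh1 and Jup lie above the line, Ctnnd1 and Myh9 below it.

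A single cell weighed on the value of Cdh1. The highest and lowest blastomeres of a mouse id differed by a median factor of 4.61 in Cdh1, over the 13 mouse ids in which every cell had reads. One Let7e replicate 2 blastomere had 0 Cdh1 reads of 2718806, while its 7 companions included 1 at 280.0 CPM. That cell also had the fewest detected genes of all, 5562. It had the lowest Ctnna1 of its mouse id, 28.3 CPM, and 22.1 CPM of Ctnnb1 (median of the mouse id 64.5), with 0 reads of Prkci and Pard3. Its Ctnnd1, 33.5 CPM, was the highest of the mouse id, and it had 65.5 CPM of Jup and 26.1 of Pard6b. Without Let7e replicate 2 the pooled SD of Cdh1 was 1.07, the lowest over all mouse ids left out in turn. In mi699a-5p replicate 1, a blastomere with 8.7 CPM of Cdh1 and 1.24 of Ctnnb1 also had the lowest Ctnnd1 of its mouse id, 3.11 CPM, and 12.4 CPM of Jup (median 36.8), while its Ctnna1 stood at 210.0 CPM. This blastomere too had the fewest detected genes of its mouse id, 6367 (median 7031), and the fewest reads, 1608320.

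Jup ranged over cells from 0 reads to 240.0 CPM. Its highest and lowest cells differed by a median factor of 42.1 in the 11 mouse ids without a cell at 0. It had 0 reads in 1 of 20 Let7e cells and in 3 of 22 NC cells, and reads in all 18 Let7d and all 21 mi699a-5p cells. Thinned to equal depth, Jup had reads in 17 of 18 Let7d cells, and the numbers of the other groups did not change. For Ctnnd1 the matching factor was 6.5 over 13 mouse ids, with reads in 80 of 81 cells. All 5 adhesion genes had reads together in 16 of 18 Let7d, 18 of 20 Let7e and 21 of 21 mi699a-5p cells, and in 19 of 22 NC cells.

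The polarity genes were found less evenly. Prkci had 0 reads in 28 of the 81 cells, Pard6b in 33 and Pard3 in 17. Reads of all 3 came from 7 of 18 Let7d, 8 of 20 Let7e and 3 of 21 mi699a-5p cells, and from 8 of 22 NC cells. In 5 cells none of the 3 had a read, 0 of Let7d, 1 of Let7e, 1 of mi699a-5p and 3 of NC. These are counts of cells, which share mouse ids, so no test was run on them. A cell without reads at this depth is not shown to lack the transcript.

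**Figure D4:**
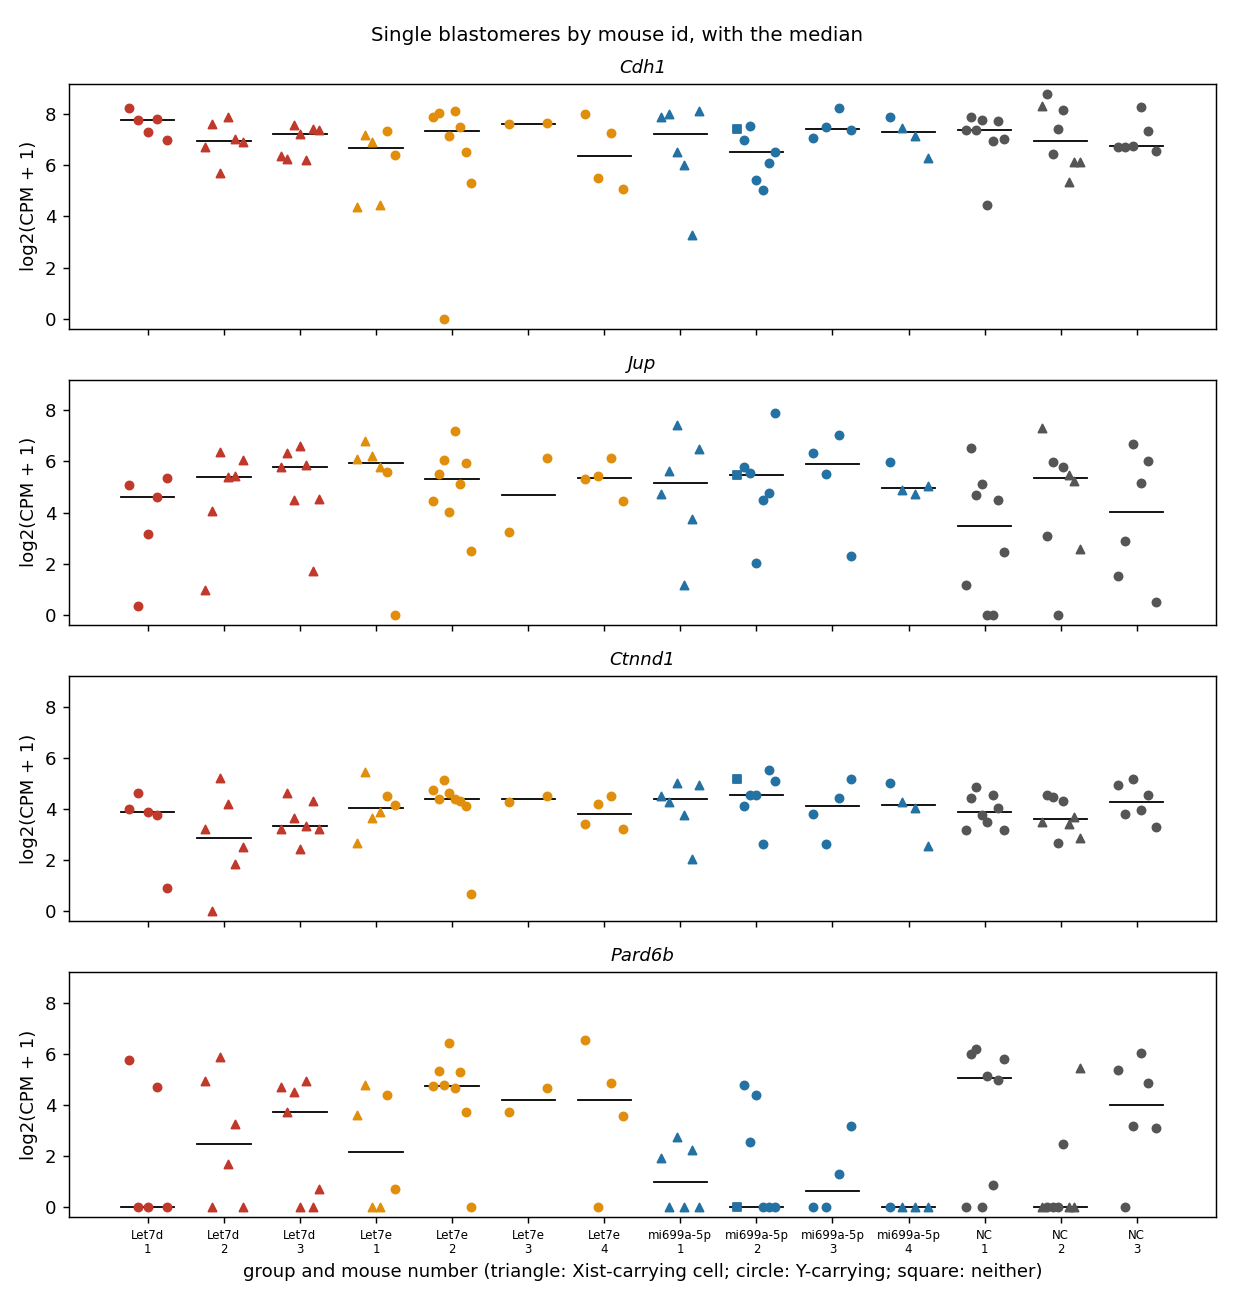
Log2(CPM + 1) of Cdh1, Jup, Ctnnd1 and Pard6b in each of the 81 blastomeres (y axis), by group and mouse number (x axis), with the median of each mouse id as a line. Triangles are cells with Xist RNA, circles cells with Y-linked RNA and squares cells with neither. Pard6b lies at 0 in all 4 cells of mi699a-5p replicate 4 and in 6 of 8 cells of NC replicate 2.

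Mouse ids added little to the spread between cells. The intraclass correlation, the share of the variance within a group that lies between mouse ids, was 0.167 for Ctnnb1, 0.111 for Pard3 and 0.103 for Ctnna1, against a median of 0.044 over all genes. It was 0.047 for Pard6b and 0.024 for Prkci, and -0.202 and -0.0883 without the mixed mouse ids. For Cdh1 (-0.095), Ctnnd1 (-0.117), Jup (-0.135) and Myh9 (-0.086) the estimate was below 0, so that cells of a mouse id differed no less than cells of different mouse ids of the group. In the 11 mouse ids of 1 kind the SD between blastomeres was 1.38 for Cdh1, 1.09 for Ctnna1, 1.33 for Ctnnb1, 1.11 for Ctnnd1 and 1.99 for Jup. In the 3 mixed mouse ids it was 1.19, 0.609, 0.773, 0.859 and 2.19 for the same genes. Thus the mixed mouse ids were not those with the wider spread, except for Jup and Myh9 (1.58 there, against 1.43 in the mouse ids of 1 kind).

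The spread between blastomeres was also compared between groups, with limma on the SD of each mouse id, weighted by its cells. No member passed an adjusted p of 0.05, as did 0% of all genes, and 9.04% of all genes had an unadjusted p under 0.05. The smallest p of a member was that of Cdh1, 0.0316, with a limma adjusted p of 0.504. Its SD per mouse id was 0.5 to 0.766 in the Let7d group, 0.055 to 2.72 in Let7e and 0.492 to 1.86 in mi699a-5p, against 0.647 to 1.25 in NC. Without Let7e replicate 2, the mouse id with the cell at 0, the p of Cdh1 was 0.395 in the same test (adjusted p = 0.839). Without the mixed mouse ids it was 0.0141 (adjusted p = 0.174), in a run in which 187 genes and 0 members passed, and without mi699a-5p replicate 1 it was 0.0107 (adjusted p = 0.771). For Pard6b the limma p was 0.0686 (adjusted p = 0.59), with SDs of 2.31 to 2.89 in the Let7d group, 0.67 to 2.78 in Let7e and 0 to 2.2 in mi699a-5p, against 1.99 to 2.8 in NC. The SD of 0 is that of mi699a-5p replicate 4, in which all 4 cells had 0 Pard6b reads. Of the 21 mi699a-5p cells 13 were at 0, so this spread is tied to the level.

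Within mouse ids the correlations between members were mostly weak, and most pairs of adhesion genes lay above the median of all member pairs. Over the 81 cells, after the mean of each mouse id was removed from log2(CPM + 1), Spearman's rank correlation between 2 members had a median of 0.089 over 36 pairs, and 28 were above 0. A member and any other gene of the table had a median correlation of 0.033, with 5% of values under -0.222 and 5% over 0.269. The highest pairs were Cdh1 with Prkci (0.333), with Ctnna1 (0.31) and with Ctnnd1 (0.286). Cdh1 and its direct partner Ctnnb1 had 0.184, and Ctnna1 with Ctnnb1 -0.027. Of the other pairs of adhesion genes, Jup had 0.263 with Ctnnb1 and with Ctnna1, 0.228 with Ctnnd1 and 0.207 with Cdh1. Ctnna1 with Ctnnd1 had 0.221, and Ctnnb1 with Ctnnd1 0.09. The kinase and its adaptor, Prkci and Pard6b, had the lowest, -0.091. All pairs share the libraries and their depth, and these values are descriptions.

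Over the 14 mouse ids, the 2 genes with the most similar level were named for each member, by Spearman's rank correlation of log2 CPM. They were Usp45 (0.811) and Bcap29 (0.758) for Cdh1, Bex1 (0.88) and Utp11 (0.873) for Ctnna1, Zup1 (0.802) and Socs1 (0.785) for Ctnnb1, and Coq7 (0.89) and Ly96 (0.851) for Ctnnd1. For Jup they were Snrnp200 (0.829) and Eif3i (0.789), for Prkci Sept8 (0.789) and Tbl1xr1 (0.785), and for Pard6b Spns1 (0.873) and Gm47283 (0.868). For Pard3 they were Ptpn13 (0.846) and Mtor (0.833), and for Myh9 Fgd4 (0.842) and Larp7 (0.824). No member was among the 2 nearest genes of another member. These are the highest of 7885 values each.

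The wider adhesion and polarity machinery was read from lists chosen by name. Of 15 adherens junction partners 6 were measured, of 13 tight junction genes 9, of 17 apical and Crumbs polarity genes 10, of 12 basolateral genes 12 and of 18 Hippo pathway genes 13. In each of these lists 0 genes passed the adjusted edgeR test, in either direction, in any of the 4 comparisons. The 2 genes of each list with the smallest p in the test of any difference are named.

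Of the apical list, Lin7c, a scaffold of the Crumbs complex, had 231 ± 21.1 CPM in the Let7d group, 200 ± 51.3 in Let7e and 246 ± 48.8 in mi699a-5p, against 120.0 ± 8.99 in NC (SD), with p = 0.00234 and an adjusted p of 0.829 in edgeR. Every mouse id of the 3 injected microRNAs, from 152 CPM upwards, was above the NC range of 110.0 to 128 CPM. Freedom from overlap with NC was shared by 12%, 5.62% and 8.38% of all genes in Let7d, Let7e and mi699a-5p. These shares rest on the same NC mouse ids, and the share of genes free of overlap in all 3 at once is not given here. Patj, another Crumbs scaffold, had 23.1, 5.35, 19.3 and 16.7 CPM in Let7d, Let7e, mi699a-5p and NC.

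Of the tight junction genes, Cgn (cingulin) averaged 74.7 CPM in the Let7d group, 33.1 in Let7e and 42.9 in mi699a-5p, against 72.3 in NC, with an edgeR p of 0.0216 (adjusted p = 0.887). Cldn7, a claudin, averaged 166, 162, 226 and 127 CPM in the same order. Vcl (vinculin), which binds alpha-catenin under tension, averaged 26.5 CPM in the Let7d group, 13.6 in Let7e and 21.8 in mi699a-5p, against 9.88 in NC (edgeR p = 0.0856). Epcam, an epithelial adhesion molecule, averaged 103, 68.6, 50.5 and 94.4 CPM in the same order. Stk11 and Scrib of the basolateral list, and Amot and Stk4 of the Hippo list, had edgeR p values of 0.136, 0.352, 0.0736 and 0.18 in the test of any difference. Amot, an angiomotin that ties junctions to Hippo signalling, averaged 24.4 CPM in the Let7d group, 28.2 in Let7e and 56.8 in mi699a-5p, against 39.7 in NC.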

How the data were processed

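The authors deposited raw read counts per gene and blastomere, whole numbers with column sums that differ. By its name the table was filtered on CPM at a threshold not given in the sources used here. Per the submitters' processing notes, STAR was used with build GRCm38.p6, with no version given and no read counter named. A deposited RPKM table was not used. Of 92 labelled cells, 82 have a column and 10 were not analysed here. Of 7886 gene identifiers, 7878 matched a GENCODE M21 symbol. One pair of columns of Let7d replicate 2, of 3321 pairs, differed by about the sampling noise (chi-square per gene 1.05, next 28.7) and was counted as 1 cell. The labels do not say what a mouse id is. The tests weigh group differences against the spread between mouse ids, which may be technical.

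Counts were summed per mouse id (6329464 to 24037593 reads) and tested over all genes in 1 fit of the 4 groups (10 residual degrees of freedom) with edgeR 4.0.16 quasi-likelihood (TMM factors 0.925 to 1.084, filterByExpr, which removed 0 genes, common dispersion 0.249), with Benjamini-Hochberg adjustment at 0.05. Spread was tested with limma 3.58.1 on SDs of log2(CPM + 1). DESeq2 1.42.0 was an alternative. The scripts were tested on simulated data. Strand was not used, so reads of overlapping genes cannot be told apart. The ± values are SDs over mouse ids or SEs of the edgeR fit, and both include the spread between mouse ids. The limit given for a count of 0 covers counting error only.

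The 9 of 10 genes of the rule that have a row were reported, with the 2 genes of smallest p per list and the 2 most similar genes per member. Members and lists were chosen with earlier results of these data known. One further gene list is not reported here. Mouse numbers were not treated as pairing the samples in the main fit. The alternatives were other scaling, tools, filters, depth, pseudocount, the replicate block and mouse ids left out.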

Additional observations from a re-analysis of the deposited data

How the results depend on the processing

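Under all alternatives, 0 of 1206 tests of a member passed an adjusted p of 0.05 (smallest 0.174), and 37 of 828 fold changes of members changed sign, each with a main value of at most 0.26 in size. Genes called in Let7d against NC numbered 3 with DESeq2, 0 with the replicate block and 0 with limma on cell means. DESeq2 called 6 in mi699a-5p against NC, 8 in Let7e against Let7d and 15 in the test of any difference. The test of spread called 187 genes without the mixed mouse ids, 0 of them members. Leaving out each mouse id in turn gave 0 to 1 genes in Let7d against NC, 0 to 2 in mi699a-5p against NC, 0 to 1 in Let7e against Let7d, 0 to 1 in the test of any difference and 0 to 2 in the test of spread. The causes were not tested.

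Without the mixed mouse ids the log2 fold change turned to -0.14 for Pard3 in Let7d against NC, to -0.11 for Ctnnd1, -0.15 for Pard6b, -0.36 for Prkci and 0.02 for Cdh1 in Let7e against NC, to 0.1 for Myh9 in mi699a-5p against NC and to 0.09 for Cdh1 in Let7e against Let7d. With limma on cell means it turned to 0.09 for Cdh1 in Let7d against NC and to 0.13 for Ctnnb1 in Let7e against Let7d, after thinning to -0.0049 for Jup in Let7d against NC, and with the replicate block to 0.01 for Myh9 in Let7e against NC. Deviations of same-numbered mouse ids correlated at -0.126 to 0.128, and those of differently numbered ones at -0.177 to 0.182. No pairing by number was seen, but so few mouse ids per group cannot exclude it. The replicate block changed no call of a member.

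With each mouse id left out in turn, the log2 fold changes that turned ranged, in Let7d against NC, from -0.15 to 0.47 (Pard3), -0.16 to 0.34 (Jup) and -0.04 to 0.32 (Myh9). In Let7e against NC they ranged from -0.1 to 0.34 (Ctnnd1), -0.42 to 0.48 (Pard6b), -0.28 to 1.55 (Prkci), -0.4 to 0.29 (Pard3) and -0.35 to 0.08 (Ctnna1). In mi699a-5p against NC they ranged from -0.28 to 0.08 (Cdh1), -0.49 to 0.07 (Ctnnb1) and -0.5 to 0.04 (Myh9), and in Let7e against Let7d from -0.28 to 0.16 (Cdh1), -0.5 to 0.11 (Pard3) and -0.24 to 0.22 (Ctnnb1). With 10 CPM in place of 1 CPM as pseudocount, the SD between blastomeres was 0.554 for Ctnnd1, 1.21 for Jup, 0.931 for Prkci, 0.964 for Pard6b, 0.829 for Pard3 and 0.769 for Myh9.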
